A study of Caenorhabditis elegans with 12 samples.

Results

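Transcripts of 10 genes for small antimicrobial peptides of the worm epidermis were followed across genotype and mitochondrial stress. The genes, *nlp-25*, *nlp-27*, *nlp-28*, *nlp-29*, *nlp-30*, *nlp-31*, *nlp-33*, *nlp-34*, *cnc-2* and *cnc-4*, were taken by symbol from a table of 20212 genes. All 10 were among the 15048 genes that passed a filter on low counts, so no member was left out of any test.

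The NLP (neuropeptide-like) and CNC (caenacin) peptides are antimicrobial peptides that *Caenorhabditis elegans* makes mainly in its epidermis, the hypodermis. They are known for their induction when the fungus *Drechmeria coniospora* pierces the cuticle, when the skin is wounded and when the cuticle furrows are damaged, and *nlp-29* is the usual reporter of this response. The receptor DCAR-1 and the G protein subunit GPA-12 signal through TIR-1 and the p38 cascade of NSY-1, SEK-1 and PMK-1 to the transporter SNF-12 and the transcription factor STA-2, which drives the *nlp* genes. The *cnc-2* gene is controlled separately, by the TGF-beta ligand DBL-1 and its receptors and SMAD proteins. High salt raises *nlp-29* by another route, and some of the *nlp* genes also have larval expression that does not need infection.

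RNA was sequenced from whole animals at the fourth larval stage, L4, in 4 groups of 3 biological replicates. Both strains were grown after an egg pulse on plates of the bacterium OP50. The wild-type strain N2 was kept on plates treated with water or with sodium azide, an inhibitor of the mitochondrial respiratory chain. The strain MT12993, which carries the *mir-71(n4115)* deletion of a microRNA gene, was treated with water or azide in the same way. The RNA-seq methods name no azide dose. The deletion was studied in 1 strain, so any other difference between that strain and N2 cannot be told apart from the deletion.

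The libraries held between 16828108 and 23937993 counts. As a check of the labels, *ppfr-1*, within which *mir-71* lies, was between 98.7 and 107 CPM (counts per 1e+06 counts of the library) in the 6 wild-type libraries and between 426 and 796 CPM in the 6 libraries of the deletion. In the deletion on azide, replicate 3 was unlike its partners: its counts differed from theirs by a chi-square per gene of 80.2 and 71.2, against 7.11 to 38.3 for every other pair of replicates. Calls of the members that change without it, and the directions of *nlp-29*, are given both ways. Calls of other genes were not tested without it. The 12 hypodermis markers were *lin-26*, *nhr-25*, *elt-1*, *grh-1*, *che-14*, *wrt-2*, *wrt-10*, *rol-6*, *sqt-3*, *col-12*, *bus-8* and *pah-1*. They were detected in all groups, but their summed level was not constant. It ranged from 4494 to 5020 CPM in wild type on water, 945 to 960 CPM in wild type on azide, 4242 to 4507 CPM in the deletion on water and 1715 to 2624 CPM in the deletion on azide. Most of the sum came from *sqt-3* and the cuticle collagen gene *rol-6*, which averaged 2937 and 737 CPM in wild type on water. In whole animals, fewer cells of a type, less RNA per cell and lower expression of the marker genes themselves cannot be told apart.

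All 10 genes lie on chromosome V in the WBcel235 build, and 6 of them form a single cluster. From left to right the cluster holds *nlp-34*, *nlp-31*, *nlp-30*, *nlp-29*, *nlp-28* and *nlp-27*, from 3978903 to 3989713, a span of 10811 bases in which the annotation places no other gene. The *nlp-34* gene is on the minus strand and the other 5 are on the plus strand. The *cnc-4* gene (1447265 to 1447543, plus strand) and the *cnc-2* gene (1449791 to 1450174, minus strand) flank *cnc-3* within 2910 bases. *nlp-33* (11147357 to 11147629) and *nlp-25* (19607511 to 19608346) stand alone on the plus strand. Every member has 2 exons, overlaps 0 other annotated genes and has a coding length between 180 and 264 bases. The deposited annotation describes *nlp-28*, *nlp-29*, *nlp-30* and *nlp-31* by 1 shared amidated peptide, QWGYGGY-amide. Whether reads were shared between these related genes was not tested.

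Per kilobase of coding length, *nlp-33* was the most abundant member in every group. It averaged 1120 ± 247 FPKM (fragments per kilobase and per 1e+06 counts; SD, n = 3) among the N2 water libraries and 1130 ± 113 in the deletion on water. On azide it averaged 436 ± 5.80 FPKM in wild type and 608 ± 65.6 in the deletion. FPKM values are not scaled by TMM, so they compare members within a group better than groups. In CPM scaled by TMM, *nlp-33* averaged 102 ± 1.70 and 125 ± 21.9 in these groups, which overlapped. The next member was *nlp-31* in 3 of the groups, at 232 ± 23 FPKM in wild type on water, but in wild type on azide it was *nlp-27*, at 270 ± 25.8 FPKM against 165 ± 4.99 for *nlp-31*. At the other end, *cnc-2*, *nlp-25* and *nlp-28* averaged 4.98, 7.11 and 7.91 FPKM in wild type on water. The library counts behind the lowest values were few, 6 to 36 for *cnc-2* and 4 to 50 for *nlp-25*, which limits their precision.

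**Figure D1:**
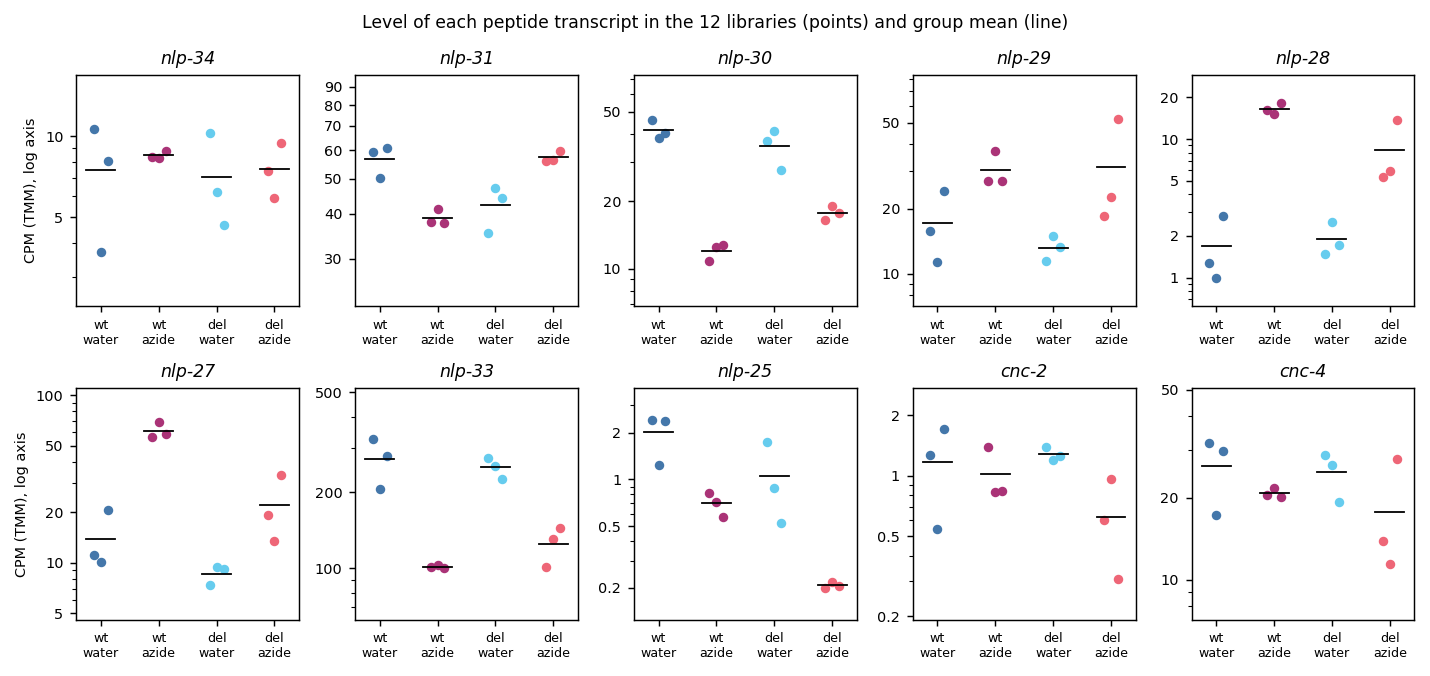
Level of each of the 10 transcripts in CPM on a log axis, with a point for each of the 12 libraries and a line at the mean of each group (wt, wild type; del, *mir-71* deletion). *nlp-28* rises from 0.992 to 2.80 CPM in wild type on water to 15.2 to 18.3 CPM on azide, while *nlp-30* falls from 38.1 to 45.8 CPM to 10.9 to 12.81 CPM (a direction that turns when libraries are centred on the hypodermis markers); in the deletion on azide 1 library lies far above the other 2 for *nlp-29* and *nlp-28*.

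Fold changes were estimated with edgeR on the counts of all 12 libraries, with p adjusted by Benjamini-Hochberg over the 15048 genes and a threshold of 0.05. On water, no member passed the test between the deletion and wild type (0 higher and 0 lower), where 0.744% of all genes were higher and 0.758% lower. At an unadjusted p under 0.05 there were 2 members, *nlp-25* and *nlp-31*, and DESeq2 called 1, *nlp-31*. The members had a median log2 fold change of -0.17 on water, against 0.00 over all genes. Between the groups on azide, 2 members were higher in the deletion and 2 were lower, where 20.1% and 18.7% of all genes were. With libraries centred on the hypodermis markers the split was 0 higher and 10 lower, and with the neuron markers 0 and 3. The members had a median of -0.20 in this comparison, against 0.04 over all genes.

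Azide against water in wild type gave 2 members higher and 4 lower, where 27.5% and 27.1% of all genes were. The median of the members was -0.27 against -0.05 over all genes. Centred on the hypodermis markers 8 members were higher and 0 lower, and on the neuron markers 3 and 2. With these centrings the median of all genes was itself 1.87 and 0.40. In the deletion, azide gave 4 members higher and 3 lower, where 12.3% and 11.6% of all genes were, with medians of -0.20 and 0.03. The difference between these azide effects, tested as an interaction, was called for 2 members, both higher in the deletion, and for 0 in the other direction (no member in that direction had an unadjusted p under 0.05, and DESeq2 called 0), where 6.67% and 3.80% of all genes were called. Centred on the hypodermis markers, 0 members were higher and 9 lower in this test, and on the neuron markers 0 and 0. The median of all genes in this test was then -1.62 and -0.29.

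Libraries of the groups compared did not overlap for 2 members in the deletion against wild type on water, for 5 in the same comparison on azide, for 7 in wild type on azide against water and for 8 in the deletion on azide against water. Over all genes these shares were 22.9%, 50.9%, 67.8% and 35.7%. The counts of members without overlap were close to the background for both comparisons of the genotypes and for wild type, and above it in the deletion on azide against water. The members are described singly, starting with those of the cluster.

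**Figure D2:**
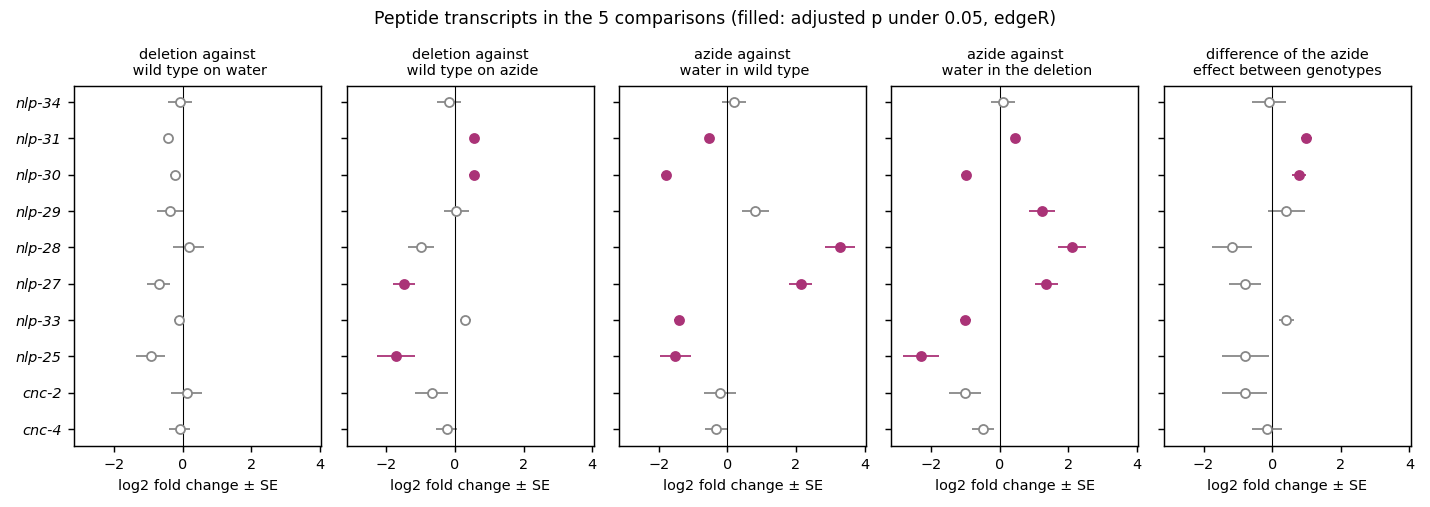
Log2 fold change of each member in the 5 comparisons, with bars of 1 standard error and filled points for an adjusted p under 0.05 in edgeR. No point is filled for the genotypes on water; on azide the *nlp-28* and *nlp-27* points lie on the right and the *nlp-30*, *nlp-33* and *nlp-25* points on the left in both genotypes (in wild type the last 3 move to the right when libraries are centred on the hypodermis markers), and *nlp-31* changes side between the genotypes (not when libraries are centred on the hypodermis markers).

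*nlp-28*, at the right of the cluster, had the largest response of the 10 members to azide in wild type. It stood at 1.27, 0.992 and 2.80 CPM in the libraries on water and at 16.1, 15.2 and 18.3 CPM on azide. The lowest azide library was thus well above the highest water library. The rise was 9.75-fold, a log2 fold change of 3.28 (SE 0.43, edgeR adjusted p = 5.67e-05). In the deletion *nlp-28* stood at 1.47, 2.51 and 1.72 CPM on water and at 5.29, 5.89 and 13.7 CPM on azide. Those groups did not overlap either, and a single azide library, replicate 3, was far above its partners. The rise in the deletion was 4.31-fold, a log2 fold change of 2.11 (SE 0.42, edgeR adjusted p = 0.0037), and the log2 fold change was 1.52 when that library was left out.

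On azide, the levels of *nlp-28* in the deletion were all below those in wild type, with means of 8.29 ± 4.69 and 16.5 ± 1.56 CPM. The log2 fold change was -1.0 (SE 0.38), and its adjusted p of 0.0521 in edgeR missed the threshold. Without replicate 3 of the deletion on azide it was -1.60 with an adjusted p of 0.00085, and leaving out replicate 2 or replicate 3 of wild type on water also brought the *nlp-28* call (adjusted p = 0.0456 and 0.0276). DESeq2 called it as well (adjusted p = 0.024). The difference of the 2 azide effects was -1.18 (SE 0.59, edgeR adjusted p = 0.203), and -1.79 with an adjusted p of 0.0124 without replicate 3.

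*nlp-27*, the last gene of the cluster, moved in the same directions. In wild type it stood at 11.2, 10.1 and 20.5 CPM on water and at 56.2, 69.1 and 58.6 CPM on azide. The groups were widely separated, and the rise was 4.39-fold, a log2 fold change of 2.14 (SE 0.33, edgeR adjusted p = 0.000293). The deletion had 7.32, 9.41 and 9.15 CPM on water and at 19.2, 13.6 and 33.5 CPM on azide. All 3 azide libraries were above the water libraries, with a 2.55-fold rise and a log2 fold change of 1.35 (SE 0.34, edgeR adjusted p = 0.0148). That *nlp-27* call was lost without replicate 1 of the deletion on water, at 1.25 with an adjusted p of 0.063, and the log2 fold change was 0.90 without replicate 3 of the deletion on azide.

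Every library of the deletion on azide had less *nlp-27* than every wild-type library on azide, with means of 22.1 ± 10.3 and 61.3 ± 6.89 CPM. The log2 fold change of -1.48 (SE 0.32) passed the test, with an edgeR adjusted p of 0.00518. On water the *nlp-27* libraries of the genotypes did not overlap either, but the log2 fold change of -0.69 (SE 0.34) did not pass (edgeR adjusted p = 0.391). The difference of the azide effects was -0.78 (SE 0.46, edgeR adjusted p = 0.283), and -1.26 with an adjusted p of 0.0331 without replicate 3 of the deletion on azide.

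*nlp-29*, the reporter gene of the epidermal response, lies to the left of these genes. In wild type it stood at 15.7, 11.3 and 24.3 CPM on water and at 26.8, 36.8 and 26.9 CPM on azide. The lowest azide library was only a little above the highest water library, and the log2 fold change of 0.82 (SE 0.38) missed the threshold in edgeR (adjusted p = 0.0924). It was called by DESeq2 (adjusted p = 0.0312), without replicate 3 of wild type on water (1.16, adjusted p = 0.0317) and when replicate 3 of the deletion on azide was left out (adjusted p = 0.00653). In the deletion *nlp-29* stood at 11.5, 14.9 and 13.3 CPM on water and at 18.4, 22.6 and 52.2 CPM on azide. The azide group was spread widely by its replicate 3.

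The rise of *nlp-29* in the deletion, a log2 fold change of 1.23 (SE 0.39, edgeR adjusted p = 0.0415), passed the threshold narrowly. It was lost when any 1 of 7 libraries was left out. Those were replicate 1 of wild type on water (adjusted p = 0.0542), replicates 1 and 3 of wild type on azide (0.0556 and 0.0565), all 3 replicates of the deletion on water (0.131, 0.0916 and 0.0914), and replicate 3 of the deletion on azide, without which the *nlp-29* log2 fold change was 0.61 (0.0874). The last was the only one of them that moved the value by more than 1.5 times. On azide the genotypes overlapped at *nlp-29*, with a log2 fold change of 0.04 (SE 0.38, edgeR adjusted p = 0.939), and the azide effects differed by 0.41 (SE 0.54, edgeR adjusted p = 0.639). Both signs rested on replicate 3 of the deletion on azide. Without it the values were -0.58 (adjusted p = 0.086) and -0.23 (adjusted p = 0.678), and the 2 libraries of the deletion left, at 18.4 and 22.6 CPM, were below the wild-type libraries on azide.

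*nlp-30*, left of *nlp-29* and with the same annotated peptide, moved the other way. In wild type it stood at 45.8, 38.1 and 40.3 CPM on water and at 10.9, 12.5 and 12.81 CPM on azide. No azide library came near a water library, and the level fell by 1.78 on the log2 scale (SE 0.15, 3.43-fold lower, edgeR adjusted p = 9.98e-07). In the deletion *nlp-30* stood at 37.2, 41.2 and 27.7 CPM on water and at 16.5, 19.1 and 17.8 CPM on azide. These groups were also apart, and the level fell by 0.99 on the log2 scale (SE 0.14, edgeR adjusted p = 0.000421). On azide every library of the deletion was above every wild-type library, with means of 17.8 ± 1.27 and 12.1 ± 1.02 CPM and a log2 fold change of 0.56 (SE 0.15, edgeR adjusted p = 0.00982). Centred on the hypodermis markers, *nlp-30* was at 0.13 for azide in wild type (edgeR adjusted p = 0.629). The genotypes on azide then gave -0.56 (adjusted p = 0.0421), and with the neuron markers 0.24 (adjusted p = 0.276).

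The azide effects on *nlp-30* differed between the genotypes by 0.79 on the log2 scale (SE 0.20, edgeR adjusted p = 0.0277). This *nlp-30* call was lost when 1 of 6 libraries was left out, replicate 1 or 3 of wild type on water (adjusted p = 0.065 and 0.0558), replicate 1 or 2 of wild type on azide (0.0772 and 0.0597), or, in the deletion, water replicate 1 (0.052) or azide replicate 2 (0.0641). The same difference was -0.89 with the hypodermis markers (edgeR adjusted p = 0.0194). With the neuron markers it was 0.45 and not called (adjusted p = 0.233). On water the genotypes overlapped at *nlp-30*, with a log2 fold change of -0.23 (SE 0.14, edgeR adjusted p = 0.514).

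*nlp-31* encodes a peptide with activity against microbes in the test tube, and with TMM scaling it was the one of the 10 members whose call had opposite signs in the genotypes. In wild type the *nlp-31* sign turned with centring on the hypodermis markers (1.37, edgeR adjusted p = 3.68e-08), where the median of all genes was 1.87. The *nlp-31* call was lost with the neuron markers (-0.10) and the ribosomal protein genes (-0.30). In wild type it stood at 59.4, 50.1 and 60.8 CPM on water and at 38, 41.1 and 37.6 CPM on azide. The azide group was lower without overlap, a log2 fold change of -0.54 (SE 0.11, edgeR adjusted p = 0.00123). In the deletion *nlp-31* stood at 35.4, 47.2 and 44.2 CPM on water and at 56.1, 56.5 and 59.9 CPM on azide. There the azide group was higher without overlap, a rise of 0.44 on the log2 scale (SE 0.11, edgeR adjusted p = 0.0134).

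That rise of *nlp-31* was lost without replicate 1 of the deletion on water (0.33, adjusted p = 0.0689). The azide effects differed by 0.99 on the log2 scale (SE 0.16, edgeR adjusted p = 0.00205), and this call held without each of the 12 libraries in turn. It did not hold under every scaling, at 0.65 with the neuron markers (adjusted p = 0.0849) and -0.66 with the hypodermis markers (adjusted p = 0.0664). On azide the deletion had more *nlp-31* than wild type, with a log2 fold change of 0.56 (SE 0.11, edgeR adjusted p = 0.0023). Centring on the neuron markers ended that call (0.24, adjusted p = 0.213), and the hypodermis markers turned it (-0.57, adjusted p = 0.0257). On water the deletion had less *nlp-31*, at -0.43 (SE 0.11), a difference without overlap that missed the threshold in edgeR (adjusted p = 0.0825). The difference of *nlp-31* on water was called by DESeq2 (-0.41, adjusted p = 0.0349) and when replicate 3 of the deletion on azide was left out (-0.41, adjusted p = 0.0463).

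*nlp-34*, at the left end of the cluster on the opposite strand, gave no call in any of the 5 comparisons with TMM scaling. It ranged from 3.72 to 10.6 CPM in wild type on water, 8.28 to 8.79 CPM on azide, 4.65 to 10.3 CPM in the deletion on water and 5.89 to 9.39 CPM on azide. All 4 ranges overlapped, and the log2 fold changes of *nlp-34* lay between -0.17 and 0.18, with standard errors of 0.35 in the comparisons of groups. Centred on the hypodermis markers, *nlp-34* was called higher on azide in wild type (2.10, adjusted p = 2.14e-11), lower in the deletion when the genotypes were compared on azide (-1.29, adjusted p = 4.17e-05), and in the difference of the azide effects (-1.84, adjusted p = 3.51e-05).

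**Figure D3:**
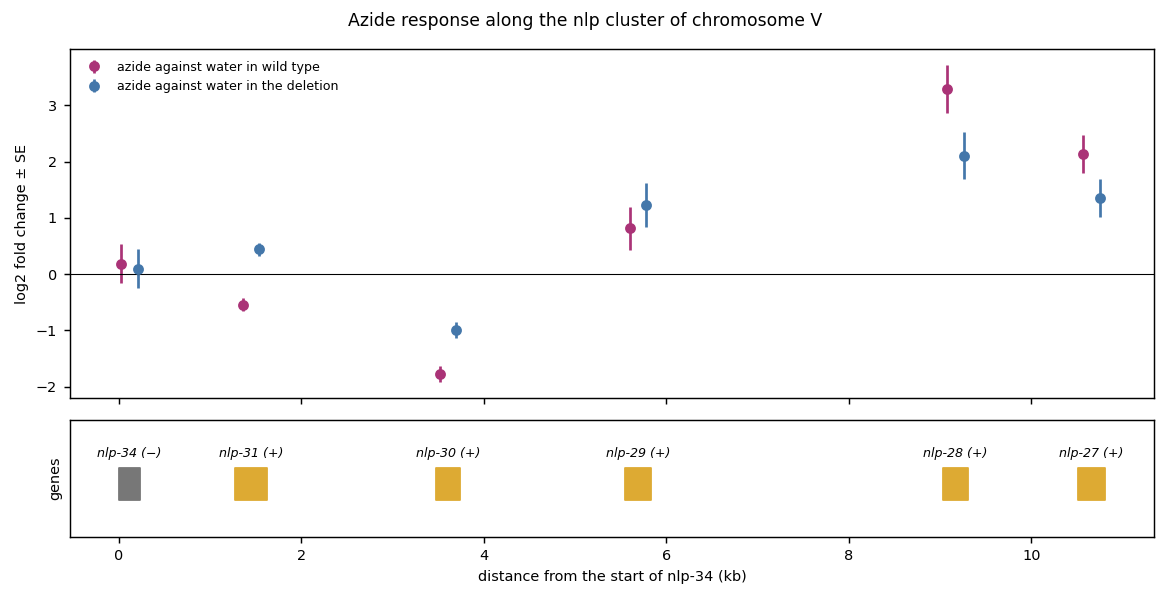
Log2 fold change for azide against water, with bars of 1 standard error, for the 6 cluster genes by distance in kb from the left end of *nlp-34*, in wild type and in the *mir-71* deletion. The lower panel draws the genes to scale with their strands. *nlp-34* lies at 0.18 and 0.10, *nlp-31* and *nlp-30* at -0.54 and -1.78 in wild type, and *nlp-28* and *nlp-27* at 3.28 and 2.14 (centring on the hypodermis markers places *nlp-34*, *nlp-31* and *nlp-30* of wild type at 2.10, 1.37 and 0.13).

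Ratios of counts between cluster genes within a library do not depend on how the libraries are scaled. Reads of *nlp-28* per read of *nlp-30* were 0.0277, 0.026 and 0.0693 in the wild-type libraries on water and 1.48, 1.22 and 1.43 on azide. In the deletion they were 0.0396, 0.061 and 0.0624 on water and 0.32, 0.309 and 0.769 on azide. The ratio was therefore higher on azide in both genotypes without overlap, and on azide every wild-type library exceeded every library of the deletion. The ratio of *nlp-27* to *nlp-30* ranged from 0.244 to 0.509 on water and 4.58 to 5.54 on azide in wild type, and from 0.197 to 0.331 on water and 0.712 to 1.88 on azide in the deletion. Here too the groups on azide were apart by genotype. By contrast the ratio of *nlp-31* to *nlp-30* on azide was alike in range, 2.94 to 3.49 in wild type and 2.96 to 3.39 in the deletion, and higher than the 1.30 to 1.51 and 0.952 to 1.6 on water. Such ratios show unequal change of the paired genes and not which of them moved.

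Outside the cluster, *nlp-33*, a glycine- and tyrosine-rich peptide gene of the same family, stood at 325, 207 and 279 CPM in wild type on water and at 101, 103 and 100.1 CPM on azide. All azide libraries were below all water libraries, a log2 fold change of -1.41 (SE 0.16, 2.66-fold lower, edgeR adjusted p = 1.13e-05). In the deletion *nlp-33* stood at 274, 255 and 226 CPM on water and at 101, 131 and 144 CPM on azide. The level fell by 1.01 on the log2 scale (SE 0.16, edgeR adjusted p = 0.000664), again without overlap. On azide the genotypes overlapped at *nlp-33* (log2 fold change 0.30, SE 0.16, edgeR adjusted p = 0.139), a difference that was called without replicate 1 of the deletion on azide (0.41, adjusted p = 0.0366). Its azide effects differed by 0.40 (SE 0.22, edgeR adjusted p = 0.235). Centring on the muscle markers brought both *nlp-33* calls in edgeR. The values were 0.58 (adjusted p = 0.00375) for the genotypes on azide and 0.85 (adjusted p = 0.00545) for the difference. Upper-quartile factors brought the first (0.44, adjusted p = 0.0496). Centred on the hypodermis markers, *nlp-33* turned to 0.51 for azide in wild type (edgeR adjusted p = 0.0401), where the median of all genes was 1.87. The genotypes on azide then gave -0.84 (adjusted p = 0.000986) and the difference -1.31 (adjusted p = 0.000261).

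The counts of *nlp-25* were low, between 4 and 50 a library. In CPM it stood at 2.43, 1.24 and 2.37 in wild type on water and at 0.819, 0.718 and 0.574 on azide. The azide group was lower without overlap, a log2 fold change of -1.52 (SE 0.44, edgeR adjusted p = 0.0103). Centred on the hypodermis markers this value was 0.40 and not called (adjusted p = 0.482). In the deletion *nlp-25* stood at 1.74, 0.877 and 0.523 CPM on water and at 0.2, 0.22 and 0.205 CPM on azide. The log2 fold change was -2.30 (SE 0.53, edgeR adjusted p = 0.00717), also without overlap.

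On azide *nlp-25* was lower in the deletion than in wild type, with a log2 fold change of -1.72 (SE 0.55, edgeR adjusted p = 0.0241) with no overlap. The call was lost without replicate 1 of wild type on azide (adjusted p = 0.0681), replicate 2 of wild type on azide (0.0546) or replicate 2 of the deletion on azide (0.0584). Neither the genotypes on water (log2 fold change -0.93, SE 0.42, edgeR adjusted p = 0.334) nor the difference of the azide effects (-0.79, SE 0.69, edgeR adjusted p = 0.463) passed for *nlp-25*. On water 1 library of the deletion lay within the wild-type range.

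The caenacin genes gave no call in the 5 comparisons with TMM scaling. Centred on the hypodermis markers, *cnc-2* and *cnc-4* were higher on azide in wild type (1.70 and 1.58, adjusted p = 0.00153 and 2.53e-09), lower in the deletion when the genotypes were compared on azide (-1.84 and -1.37, adjusted p = 0.00136 and 4.94e-07), and lower in the difference of the azide effects (-2.49 and -1.86, adjusted p = 0.00144 and 1.15e-06). *cnc-2*, the gene known for its control by DBL-1, stood at 1.27, 0.546 and 1.71 CPM in wild type on water and at 1.38, 0.828 and 0.839 CPM on azide. The deletion had 1.38, 1.2 and 1.25 CPM on water and at 0.599, 0.966 and 0.308 CPM on azide. These last groups did not overlap, but the *cnc-2* log2 fold change of -1.01 (SE 0.47) did not pass (edgeR adjusted p = 0.136). In wild type it was -0.21 (SE 0.46, edgeR adjusted p = 0.72).

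*cnc-4* stood at 31.7, 17.4 and 29.7 CPM in wild type on water and at 20.6, 21.8 and 20.2 CPM on azide. The deletion had 28.7, 26.4 and 19.3 CPM on water and at 13.9, 11.4 and 27.7 CPM on azide. The groups overlapped in every comparison, and the azide library of replicate 3 was again the highest of its group. Without it *cnc-4* was lower on azide than on water in the deletion (-1.0, adjusted p = 0.00487) and lower than in wild type on azide (-0.75, adjusted p = 0.0181), against -0.49 (SE 0.31, edgeR adjusted p = 0.274) and -0.24 (SE 0.31, edgeR adjusted p = 0.571) with it.

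Added together, reads of the 10 genes made up 341 to 504 CPM in wild type on water, 280 to 310 CPM on azide, 348 to 409 CPM in the deletion on water and 239 to 359 CPM on azide. The sum was lower on azide without overlap in wild type, and the highest azide library of the deletion lay above its lowest water library. *nlp-33* gave 59.4% to 67.0% of these reads on water in both genotypes, 33.4% to 36.2% in wild type on azide and 40.1% to 49% in the deletion on azide, without correction for gene length. *nlp-27* gave 1.79% to 4.37% on water, 20.03% to 22.3% in wild type on azide and 5.09% to 9.34% in the deletion on azide. *nlp-31* gave 8.65% to 14.7% on water, 13.2% to 13.6% in wild type on azide and 16.7% to 23.5% in the deletion on azide.

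**Figure D4:**
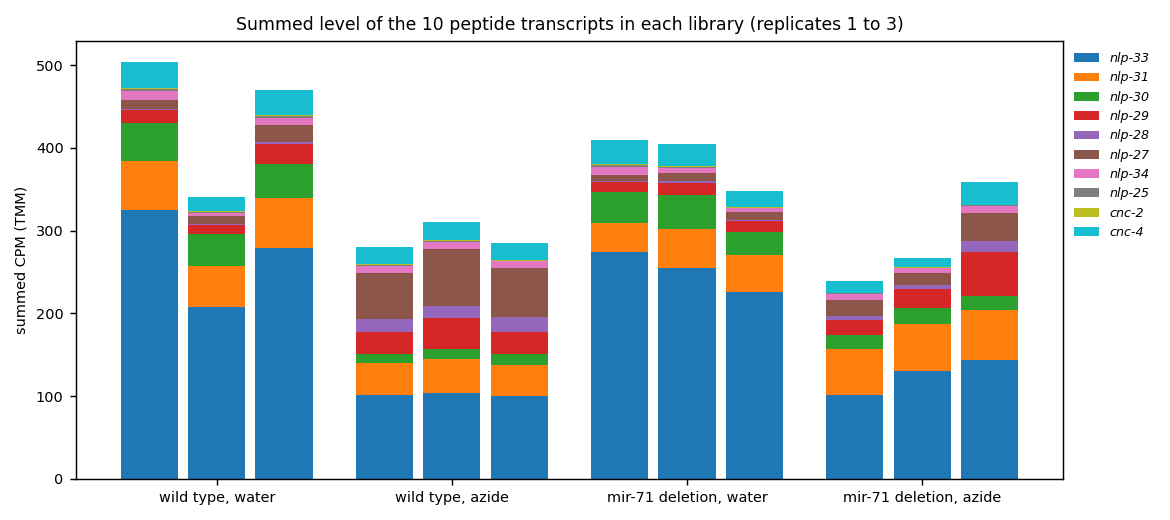
Summed level of the 10 transcripts in CPM in each library, replicates 1 to 3 from left to right in each group, with the part of each gene stacked. The bars reach 341 to 504 CPM in wild type on water and 280 to 310 CPM on azide; the lowest block, *nlp-33*, is 59.4% or more of each bar on water and at most 49% on azide, and the *nlp-27* block is widest in wild type on azide.

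Markers of the tissue that makes the peptides also changed in level. Of the 12 hypodermis markers, 10 were lower and 0 higher on azide in wild type (median log2 fold change -2.24), where 27.1% and 27.5% of all genes were. In the deletion 6 were lower and 0 higher (median -0.47), where 11.6% and 12.3% of all genes were. On azide, 9 were higher and 1 lower in the deletion than in wild type (median 1.52), where 20.1% and 18.7% of all genes were. Among the markers, *rol-6*, a cuticle collagen, fell by 2.78 in wild type and by 1.09 in the deletion on the log2 scale. When libraries were centred on these markers, azide in wild type gave 8 members higher and 0 lower, and *nlp-30*, *nlp-31*, *nlp-33* and *nlp-25* had log2 fold changes of 0.13, 1.37, 0.51 and 0.40. The same centring gave 0 members higher and all 10 lower in the deletion against wild type on azide, with *nlp-30* and *nlp-31* at -0.56 and -0.57, and the difference of the azide effects was then -0.89 for *nlp-30* and -0.66 for *nlp-31*. *nlp-28* and *nlp-27* stayed higher on azide in both genotypes under this and every other scaling tried.

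Of the 12 neuron markers, 10 were lower on azide in wild type (median -0.67), where 27.1% of all genes were. On azide 0 were lower and 9 higher in the deletion than in wild type (median 0.48), where 18.7% and 20.1% of all genes were. Centring on the neuron markers ended the calls of *nlp-25* and *nlp-31* for azide in wild type (adjusted p = 0.0628 and 0.616), of *nlp-30* and *nlp-31* for the genotypes on azide (0.276 and 0.213), and of *nlp-30* and *nlp-31* for the difference of the azide effects (0.233 and 0.0849). Centring on ribosomal protein genes ended the call of *nlp-31* for azide in wild type (adjusted p = 0.0727) and that of *nlp-30* for the difference (0.138), and centring on muscle markers that of *nlp-25* for the genotypes on azide (0.0572). Calls were also gained. *nlp-28* for the genotypes on azide was called with the neuron markers (-1.38, adjusted p = 0.00723) and the ribosomal protein genes (-0.97, adjusted p = 0.0425), and *nlp-29* for azide in wild type with the same sets (1.25 and 1.06, adjusted p = 0.00368 and 0.00982). For azide in the deletion, fits of the 2 groups alone ended the calls of *nlp-31* (adjusted p = 0.0632) and *nlp-29* (0.0779), and upper-quartile factors and the absence of a filter also ended that of *nlp-29* (0.0514 and 0.0692).

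Developmental markers moved as well. The summed level of 12 molting-cycle genes was 4609 to 6009 CPM in wild type on water and 791 to 844 CPM on azide, against 3989 to 4940 CPM and 2878 to 4222 CPM in the deletion. The 7 adult-onset genes, the vitellogenins and *col-19*, summed to 4446 to 6378 CPM in wild type on water and 36844 to 46944 CPM on azide, against 2359 to 2761 CPM and 262 to 2291 CPM in the deletion. All 7 of them rose on azide in wild type (median log2 fold change 2.86), and 0 did in the deletion. Over all genes 27.5% and 12.3% were higher. The part of tissue makeup and of developmental stage in the changes of the peptide genes was not tested.

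The rest of the *nlp*, *cnc*, *fip* and *fipr* families gave 28 tested genes of 48. On azide 16 of them were higher and 4 lower in wild type, where 27.5% and 27.1% of all genes were. In the deletion 10 were higher and 2 lower, where 12.3% and 11.6% of all genes were. The median log2 fold changes of the family genes were 1.40 and 1.19, against -0.05 and 0.03 over all genes. Those medians were 1.29 and 1.17 without *fipr-18* and *fipr-28*, which had no count in the deletion on water. A gene could pass the filter on low counts by the libraries of 1 group. Family genes low on water could thus enter the list by their level on azide. For example, *fipr-24* and *fipr-29* averaged 0.117 and 0.0474 CPM in wild type on water, against 1.65 and 0.538 CPM on azide. The part of the filter in the number of rises and in the medians was not tested. Among the tested genes, the largest rises in wild type were those of *fipr-13* (4.25), *fipr-24* (3.77) and *fipr-22* (3.43), from levels of 0.44, 0.117 and 0.524 CPM on water. The largest falls were those of *cnc-3* (-2.44), *fip-6* (-1.75) and *fipr-21* (-1.01). *cnc-3*, which lies between *cnc-4* and *cnc-2*, went from 38.3 ± 4.92 to 7.05 ± 1.78 CPM in wild type and from 33.7 ± 4.06 to 27.8 ± 5.87 CPM in the deletion, and the azide effects differed by 2.16 on the log2 scale (SE 0.27, edgeR adjusted p = 0.000431).

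On water the other family genes gave 0 higher and 2 lower in the deletion, where 0.744% and 0.758% of all genes were. Those 2 were *fipr-21*, at 316 ± 29.4 against 443 ± 18.6 CPM (log2 fold change -0.49, SE 0.11, edgeR adjusted p = 0.0414), and *fipr-17*, at 0.0282 against 0.559 CPM. On azide 6 were higher and 7 lower in the deletion than in wild type (median 0.02), where 20.1% and 18.7% of all genes were. The difference of the azide effects was called higher for *cnc-3* and *fip-6* and lower for *fipr-13*, where 6.67% and 3.80% of all genes were called. *fipr-13* had 8.5 ± 0.988 CPM in wild type on azide and 0.446 ± 0.252 CPM in the deletion on azide, a log2 fold change of -4.26 (SE 0.35, edgeR adjusted p = 4.14e-06).

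**Figure D5:**
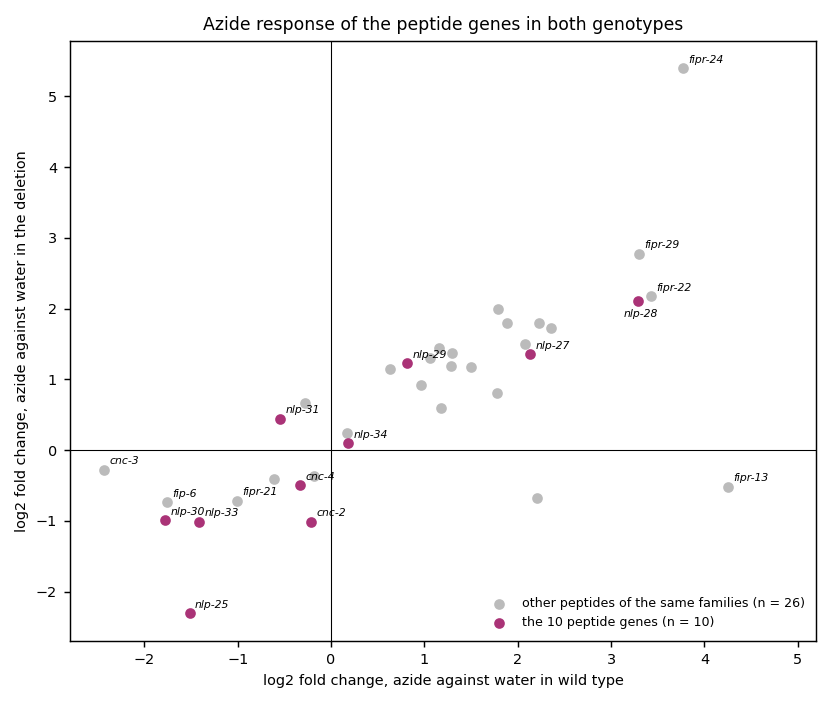
Log2 fold change for azide against water in wild type (horizontal) and in the *mir-71* deletion (vertical) for the 10 genes (purple) and 26 other genes of the same peptide families (grey); *fipr-18* and *fipr-28*, with no count in the deletion on water, are not drawn. *nlp-28* and *nlp-27* lie at the upper right with most of the *fipr* genes, *nlp-30*, *nlp-33* and *nlp-25* at the lower left (to the right of 0 when wild-type libraries are centred on the hypodermis markers), *nlp-31* alone among the 10 lies at the upper left (at the upper right with that centring), and *fipr-13* lies far right at -0.51 in the deletion.

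Genes of the pathway upstream of the *nlp* peptides were described from a list of 19. On water 0 of them were called in either direction (median log2 fold change -0.14). On azide in wild type 0 were higher and 7 lower (median -0.39), where 27.5% and 27.1% of all genes were. The largest falls were those of *dapk-1* (-0.86), a kinase gene that restrains epidermal *nlp-29*, of the receptor gene *dcar-1* (-0.58), and of *hpd-1* (-0.57), the gene of a tyrosine-breakdown enzyme linked to the ligand of DCAR-1. The p38 gene *pmk-1* and its upstream kinase gene *nsy-1* fell by 0.49 and 0.53 on the log2 scale, and *sek-1* did not pass (-0.18, edgeR adjusted p = 0.16).

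In the deletion, azide gave 1 of these 19 higher, the epidermal GATA factor gene *elt-3* (0.56), and 1 lower, *dapk-1* (-0.48). Over all genes 12.3% were higher and 11.6% lower. Between the genotypes on azide 5 were higher in the deletion and 0 lower (median 0.24), where 20.1% and 18.7% of all genes were. The largest differences were those of *snf-12* (0.84, SE 0.31, edgeR adjusted p = 0.0432), which encodes the STA-2 partner, of *vhp-1* (0.71, SE 0.10, edgeR adjusted p = 0.000243), a MAP kinase phosphatase gene, and of *sta-2* (0.62, SE 0.20, edgeR adjusted p = 0.0258). The adaptor gene *tir-1* was also called (0.58, SE 0.21, edgeR adjusted p = 0.0444). The calls of *snf-12* and *tir-1* were close to the threshold, and their levels in the deletion on azide were spread widely. *snf-12* averaged 7.32 ± 4.03 CPM there, against 4.06 ± 0.0225 CPM in wild type on azide. *tir-1* averaged 36.3 ± 13.6 CPM there, against 24.3 ± 3.26 CPM in wild type on azide. Whether calls of this list hold without replicate 3 of the deletion on azide was not tested. The azide effects differed for *vhp-1* (0.61) and *hpd-1* (0.51).

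The DBL-1 pathway, which controls *cnc-2*, was described from 12 genes. None was called on water (0 higher and 0 lower). On azide 0 were higher and 4 lower in wild type, where 27.5% and 27.1% of all genes were. The falls were led by the SMAD gene *sma-2* (-1.40) and *lon-1* (-1.39), a secreted protein gene repressed by the pathway. In the deletion 1 was higher, *sma-3* (0.64), and 2 were lower, *lon-1* (-0.67) and *sma-2* (-0.63), against 12.3% and 11.6% of all genes. Between the genotypes on azide 5 were higher in the deletion and 0 lower, where 20.1% and 18.7% of all genes were. Those higher included *dbl-1* itself (0.53, SE 0.16, edgeR adjusted p = 0.0189). With the same scaling *cnc-2* gave no call in these comparisons.

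The 6 furrow collagens, whose loss in mutants raises the *nlp* genes, all fell on azide in wild type (median log2 fold change -2.74), with *dpy-7* at -2.90 and *dpy-3* at -2.79. Over all genes 27.1% were lower. In the deletion 0 of the 6 were called on azide against water (median 0.21), where 12.3% of all genes were higher and 11.6% lower. The azide effects differed for all 6 (median 2.96), where 6.67% of all genes were called in that direction. Of 9 genes of the osmotic response, 0 were higher and 4 lower on azide in wild type, where 27.5% and 27.1% of all genes were. *osm-8* and *osr-1*, loss of which raises the epidermal peptides or the osmotic stress genes, fell by 3.56 and 3.47 on the log2 scale. In the deletion 1 of the 9 was higher, *hmit-1.2* (0.81), and 1 lower, *osm-7* (-0.72), against 12.3% and 11.6% of all genes. Of 11 listed intestinal targets of PMK-1, 7 were found by symbol, and all 7 were tested. On azide 5 were higher and 1 lower in wild type (median 1.9), where 27.5% and 27.1% of all genes were. In the deletion 5 were higher and 0 lower (median 1.51), against 12.3% and 11.6% of all genes. The rises in wild type were led by *irg-6* (4.91) and *irg-5* (2.63). *irg-6* averaged 0.147 CPM in wild type on water and 4.61 CPM on azide, so it could pass the filter by its level on azide. The part of the filter in its rise was not tested.

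The members also differed in how they followed each other over the 12 libraries, which is described here with no test, since the libraries share their groups. The log2 CPM of *nlp-30* and *nlp-33* had a Pearson correlation of 0.96, *nlp-27* and *nlp-28* of 0.92, and *nlp-28* and *nlp-29* of 0.86. The correlation of *nlp-28* with *nlp-30* was -0.92. Outside the members, the tested genes most like *nlp-29* by the same measure were *F55H12.4* (0.95), *B0457.2* (0.95) and *grl-21* (0.95), and those most like *cnc-2* were *fbxa-26* (0.87), *Y48G10A.3* (0.85) and *T05B11.7* (0.84). These were picked as the highest values among all tested genes. Levels were low for *fbxa-26* and *T05B11.7*, with group means of 0.840 to 2.01 and 0.450 to 0.719 CPM, and *cnc-2* had 6 to 36 counts a library. *grl-21*, a ground-like protein gene, averaged 12.1 and 30.1 CPM in wild type on water and azide and 10.9 and 44.1 CPM in the deletion.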

How the data were processed

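Groups and replicate numbers came from the sample labels. The authors used cutadapt 1.9.1 for trimming, HISAT2 2.0.1 with the WBcel235 build for alignment and HTSeq 0.6.1 for counting, and differences were tested with DESeq2, according to the submitters' processing notes and the methods. The strand setting used by HTSeq is, in the sources used here, not given. The deposited table holds raw counts, which the authors did not normalize, and FPKM values, which the authors computed per kilobase of a gene size that is mostly a coding length (95.4% of sizes are multiples of 3). It had 0 rows without a gene name, and 0 per-sample columns went unused.

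Counts were tested in edgeR 4.0.16 (R 4.3.3) with TMM factors (0.924 to 1.19), a mean for each of the 4 groups, robust quasi-likelihood tests, two-sided, and Benjamini-Hochberg adjustment over 15048 genes that passed the edgeR filter (minimum count 10, total 15), of 19105 above 0. Standard errors were the log2 fold change divided by the square root of F. CPM are scaled by TMM, and log2 CPM used a prior count of 1. The fit was tested on simulated data. The members and gene lists were chosen with earlier results of these data known. All 10 members are named in every comparison. From every other list up to 3 rises and 3 falls past the threshold could be named, chosen by size, and *fipr-20* and *fipr-17*, with very few counts in the deletion on azide, are not given with a fold there. Further genes (*pmk-1*, *nsy-1*, *sek-1*, *tir-1*, *dbl-1*) were named for their role. The 3 genes most correlated with *nlp-29* and with *cnc-2* are given. Alternatives were DESeq2 1.42.0, its size factors, upper-quartile factors, centring on hypodermis, neuron, muscle or ribosomal protein genes, no filter, 2-group fits, a replicate block and leaving out each of 12 libraries.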

Additional observations from a re-analysis of the deposited data

Results flagged for a closer look

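The effect of azide differed between the genotypes, by the interaction test in edgeR, for *nlp-31*, by 0.987 on the log2 scale (adjusted p = 0.00205), with a fall in wild type and a rise in the deletion. It also differed for *nlp-30*, by 0.788 (adjusted p = 0.0277), with a smaller fall in the deletion than in wild type. When libraries were centred on the hypodermis markers these values became -0.66 and -0.89. Centred on the neuron markers they were 0.65 and 0.45, and neither was called.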

How the results depend on the processing

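Of 1090 alternative values of the members' fold changes, 960 kept their direction and their side of the threshold, 37 came to pass it, 31 ceased to and 14 turned with a call on either side, all 14 on centring on the hypodermis markers. The other 48 changed sign but were called in neither fit (24 of them on leaving out a library). With centring on those markers the median of all genes was 0.55 and -1.1 for the genotypes on water and on azide. It was 1.87 and 0.27 for azide in wild type and the deletion, and -1.62 for the difference. The medians of all genes largest in size with other scalings were 0.54 (muscle markers), 0.40 (neuron markers), 0.25 (ribosomal protein genes) and -0.20 (upper-quartile factors).

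The values of the members that turned with the hypodermis markers were, for the deletion against wild type on azide, *nlp-29* -1.1, *nlp-30* -0.56, *nlp-31* -0.57 and *nlp-33* -0.84; for azide in wild type, *nlp-25* 0.40, *nlp-30* 0.13, *nlp-31* 1.37, *nlp-33* 0.51, *cnc-2* 1.70 and *cnc-4* 1.58; and for the difference of the azide effects, *nlp-29* -1.22, *nlp-30* -0.89, *nlp-31* -0.66 and *nlp-33* -1.31. Counts of members called that moved from or to 0, or by more than 1.5 times, were these. For the genotypes on water, lower went from 0 to 1 in DESeq2. On azide, higher went from 2 to 0 with the hypodermis and with the neuron markers, and lower from 2 to 10 with the hypodermis and 1 with the muscle markers. For azide in wild type, higher went from 2 to 8 with the hypodermis markers and lower from 4 to 0 with the hypodermis and 2 with the neuron markers. In the deletion, higher went from 4 to 2 in 2-group fits. For the difference of effects, higher went from 2 to 0 with the hypodermis and with the neuron markers and to 1 with the ribosomal protein genes, and lower from 0 to 9 with the hypodermis markers. The cause was not tested. Moves of 1 member within that factor also occurred: some settings gave 3 higher or 3 lower for the genotypes on azide and for azide in wild type, 3 higher for azide in the deletion, and 3 higher for the difference of effects.

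Leaving out 1 library gave 0 to 1 members lower on water, 1 to 4 lower in the deletion on azide, 1 to 4 higher on azide in the deletion, and 1 to 2 higher and 0 to 2 lower for the difference of effects. For same-numbered libraries of different groups, the deviations from the group means had correlations of -0.11 to 0.17, over 0.1 in 2 of 18 pairs. Libraries of unlike number gave -0.22 to 0.14, over 0.1 in 5 of 36 pairs. These correlations showed no pairing by number and cannot exclude it. With a replicate block the call of *nlp-28* for the genotypes on azide was gained (-1.11, adjusted p = 0.015), as was that of *nlp-29* for azide in wild type (0.88, adjusted p = 0.0442), and the block changed no other call of the members. Depth limits *nlp-25* and *cnc-2*, with as few as 4 and 6 counts.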
